A study of Mus musculus with 18 samples.

Results

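The comparison described here is that of cells pulsed with GLI1 and their untreated controls at D8, harvested after the inducing drug had been washed out at D6. It rests on 4 of the 18 libraries of the series, chosen by their labels: GLI1 overexpression (OE) libraries 14 and 18, and control libraries 13 and 17. All 4 come from the GLI1-FTA line, a mouse embryonic stem cell line in the A2Lox.cre background that was differentiated toward cardiomyocytes and is described in the labels as immature cardiomyocytes at D8. GLI1 OE cells were given doxycycline at 500 ng/ml for 24 hours between D5 and D6, then washed and left to differentiate. Controls were the same line without treatment. No group received doxycycline without induction of GLI1, so effects of the drug itself cannot be told apart from those of GLI1. The comparison bears on what is left of the response 2 days after washout.

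GLI1 is the transcriptional activator at the end of the Hedgehog pathway. Binding of a Hedgehog ligand to the receptor PTCH1 frees the membrane protein SMO, which leads GLI proteins to activate genes such as Gli1, Ptch1, Hhip and forkhead factors. In the embryo the pathway is active in second heart field progenitors, which add cells to the growing heart before they differentiate into contracting muscle.

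PolyA RNA was read as counts per gene, with 20798195 and 20524374 counts in GLI1 OE libraries 14 and 18, against 22064021 and 22042794 in control libraries 13 and 17. Between 16181 and 16400 genes had a count in each. The cardiomyocyte label was checked against genes of the sarcomere, the contractile unit of muscle: all 30 markers had counts in each of the 4 libraries, and 29 passed the expression filter. Their summed level was 21840 and 3283 CPM, counts scaled to the library total, in GLI1 OE libraries 14 and 18, against 24050 and 11490 CPM in control libraries 13 and 17. Library 18 therefore stood below the other 3. The chi-square statistic per gene was 122.2 between libraries 14 and 18 and 48.2 between the controls. Nothing in the labels ties replicates to separate cultures. The p-values rest on the spread between libraries of the same group, pooled over the 7 groups of the series, which may be technical. For this reason each gene is given in every library, and also as a difference within 2 pairs of adjacent library numbers, 14 minus 13 and 18 minus 17. Below, levels are CPM scaled by edgeR, listed for libraries 14 and 18 and then for libraries 13 and 17.

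Gli1 itself was near the control level. It had 0.925 and 1.45 CPM in the GLI1 OE libraries, against 0.752 and 1.18 CPM in controls, so the groups overlapped. The log2 fold change was 0.30 ± 0.89 (SE; edgeR adjusted p = 0.976, n = 2 libraries a group), after 6.02 at D6 (edgeR adjusted p = 4.31e-05). The D8 effect was lower than the D6 effect by 5.72 on the log2 scale (edgeR interaction adjusted p = 0.0277). Whether the induced copy is counted under Gli1 is not given in the sources used here.

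Across all genes, edgeR called 0% of 14892 genes (adjusted p under 0.05), the smallest adjusted p being 0.489. An unadjusted p under 0.05 was reached by 480 genes that were higher in GLI1 OE (3.22%) and 406 that were lower (2.73%). DESeq2 called 40 of the 14308 genes to which it gave an adjusted p (0.28%): 24 higher (0.168%) and 16 lower (0.112%). Limma-voom called 0, with 962 genes at an unadjusted p under 0.05. For scale, both GLI1 OE libraries lay above both controls in 17% of genes and below both in 15.2% (32.2% together). A gap between groups together with a difference of at least 0.5 log2 in both pairs was found for 404 genes that were higher (2.71%) and 413 that were lower (2.77%). Of the 40 DESeq2 calls, 36 met that criterion. The genes below are therefore described by their values, and edgeR's adjusted p was 0.489 for each of the 12 higher and 12 lower genes taken from that group.

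The authors' deposited table of changed genes at D8 lists 11, of which 5 are higher and 6 lower in GLI1 OE. In the counts each of the 11 separated the groups, as the plot of their levels shows (32.2% of all genes did so). DESeq2 also called 4 of them, Nrp2, Alcam, Spon1 and Fam167a (0.28% of the genes it gave an adjusted p were called). The list was drawn from this same D8 comparison, so neither count is independent support for it. The list leads with cell surface and matrix proteins. Nrp2, a co-receptor for semaphorins and VEGF, had 385 and 345 CPM in GLI1 OE, against 78.7 and 125 CPM in controls. Every GLI1 OE value lay well above the controls, with a log2 fold change of 1.84 ± 0.41 and pair differences of 2.29 and 1.46 (DESeq2 adjusted p = 0.00775; over the 11 alternatives to the edgeR fit the adjusted p ran up to 1). The authors' deposited table gives 1.85 for it, with an adjusted p of 0.000663.

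Alcam, an adhesion molecule that marks embryonic heart muscle, lay the other way. It had 17.6 and 16.4 CPM in GLI1 OE, against 54.7 and 58.4 CPM in controls, with little spread within either group. Its log2 fold change was -1.73 ± 0.42, close to the -1.58 at D6 (edgeR adjusted p = 0.0141 at D6). DESeq2 gave an adjusted p of 0.0167 at D8, and the other alternatives ran up to 0.996.

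**Figure D1:**
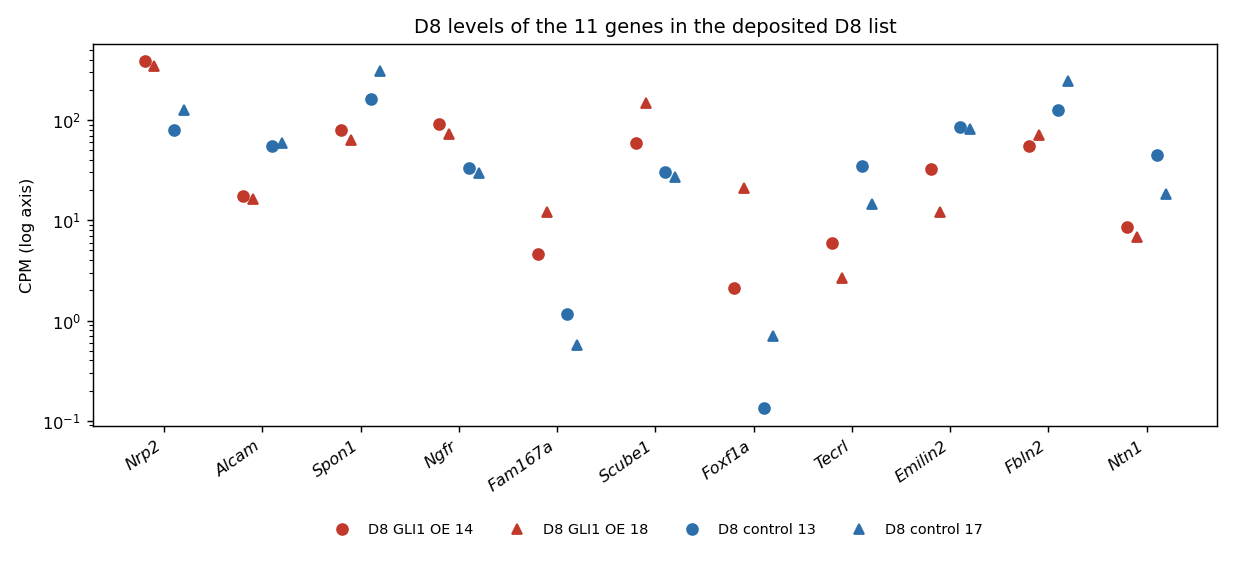
Levels in CPM (log axis) of the 11 genes in the authors' deposited D8 list, with GLI1 OE libraries 14 and 18 in red left of control libraries 13 and 17 in blue; each point is 1 library. The red and blue points do not overlap for any of the 11, and the gap is tight for Alcam (17.6 and 16.4 against 54.7 and 58.4) and wide with scatter for Foxf1a (2.13 and 21.1 against 0.133 and 0.697).

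Ngfr, the p75 neurotrophin receptor, had 90.4 and 73.3 CPM in GLI1 OE, against 33.1 and 29.5 CPM in controls. It was higher by 1.39 ± 0.38 on the log2 scale, with pair differences of 1.45 and 1.31. At D6 it had been called at 4.63, and the fall of the effect to D8 was itself called (-3.24, edgeR interaction adjusted p = 0.00672). Scube1, a secreted and membrane-bound EGF-domain protein, had 58.4 and 149 CPM in GLI1 OE, against 30.5 and 26.9 CPM in controls. The spread between the GLI1 OE libraries was larger here, and the estimate was 1.85 ± 0.80. Fam167a had 4.63 and 12.1 CPM in GLI1 OE, against 1.15 and 0.567 CPM in controls.

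The 6 lower genes of the list include extracellular matrix proteins. Spon1, the matrix protein F-spondin, had 79.1 and 63.7 CPM in GLI1 OE, against 163 and 309 CPM in controls. Fbln2, the matrix protein fibulin 2, had 54.8 and 70.7 CPM in GLI1 OE, against 126 and 246 CPM in controls. Emilin2, an elastic fibre glycoprotein, had 32.3 and 12.1 CPM in GLI1 OE, against 85.4 and 80.5 CPM in controls. In these 3 genes both GLI1 OE libraries lay below both controls, with estimates of -1.73, -1.57 and -1.90 on the log2 scale. Ntn1, the guidance molecule netrin 1, had 8.65 and 6.81 CPM in GLI1 OE, against 44.3 and 18.4 CPM in controls. Tecrl, an endoplasmic reticulum protein of heart muscle linked to arrhythmia in humans, had 5.97 and 2.63 CPM in GLI1 OE, against 35.1 and 14.6 CPM in controls. Its controls were far apart, and its estimate was -2.53 ± 0.95.

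The 12 genes of smallest p that were higher in both pairs include Nrp2 and Fam167a, given above. Tgfb2, a ligand of the TGF-beta family, had 381 and 321 CPM in GLI1 OE, against 244 and 208 CPM in controls. This modest and even difference (0.63 ± 0.14, pair differences 0.64 and 0.62) had the opposite sign to the one at D6, where Tgfb2 fell with a log2 fold change of -1.15 (edgeR adjusted p = 4.75e-05). The difference between the days was called at 1.78 (edgeR interaction adjusted p = 0.000465). Tgfbr1, the type I TGF-beta receptor, had 394 and 356 CPM in GLI1 OE, against 263 and 218 CPM in controls. Tsc22d1, a TGF-beta responsive leucine zipper protein, had 372 and 404 CPM in GLI1 OE, against 263 and 234 CPM in controls. Both showed the same even pattern, with estimates of 0.64 each.

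Gdf6, a BMP-type ligand, had 9.49 and 24.8 CPM in GLI1 OE, against 4.11 and 4.45 CPM in controls. Cdh6, a cadherin, had 19.2 and 28.7 CPM in GLI1 OE, against 10.3 and 4.62 CPM in controls. For Cdh6 the D8 effect exceeded the D6 effect by 2.81 on the log2 scale (edgeR interaction adjusted p = 0.0187). Ddc, the decarboxylase that makes dopamine and serotonin, had 14.3 and 26.7 CPM in GLI1 OE, against 5.22 and 5.41 CPM in controls. For Gdf6 and Ddc the library 18 value was the highest of the 4 and library 14 lay between it and the controls. The differences in pairs 14 minus 13 and 18 minus 17 were 1.19 and 2.46 for Gdf6, and 1.44 and 2.29 for Ddc.

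Hapln3, a hyaluronan link protein, and Tmem158 showed the same order more steeply. Hapln3 had 2.68 and 27.6 CPM in GLI1 OE, against 1.37 and 2.35 CPM in controls. Tmem158 had 2.92 and 21.6 CPM in GLI1 OE, against 1.19 and 1.18 CPM in controls. Both had been called higher at D6, by 7.03 and 3.42 on the log2 scale. Without library 18 their D8 estimates were down to 0.53 and 1.30. The remaining 2 of the 12 were Ager, the receptor for advanced glycation end products (1.01 ± 0.22), and Prosapip1 (1.28 ± 0.31), both at 8.4 CPM or less in every library.

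The 12 genes of smallest p that were lower in both pairs begin with P2ry1, a purinergic receptor for ADP. It had 7.68 and 3.95 CPM in GLI1 OE, against 20.8 and 22.9 CPM in controls. Both GLI1 OE values lay far below the close pair of controls, with a log2 fold change of -1.91 ± 0.33 (DESeq2 adjusted p = 0.00021; range over the alternatives up to 0.996). Lama4, the laminin alpha 4 chain of vascular and muscle basement membranes, had 103 and 63.2 CPM in GLI1 OE, against 222 and 170 CPM in controls. Its estimate was -1.24 ± 0.26, with -0.14 at D6. Negr1, a neuronal adhesion protein, had 2.73 and 1.14 CPM in GLI1 OE, against 8.1 and 14.5 CPM in controls.

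Popdc3, a cAMP-binding Popeye protein of muscle, had 2.08 and 0.999 CPM in GLI1 OE, against 4.91 and 6.93 CPM in controls. Rpp25, a subunit of ribonuclease P, had 3.7 and 3.77 CPM in GLI1 OE, against 8.58 and 10.9 CPM in controls. Gfod1 had 18.3 and 10.4 CPM in GLI1 OE, against 31.5 and 36.7 CPM in controls. These 3 had been called lower at D6 as well, with log2 fold changes of -1.31, -1.35 and -1.66, as had Alcam, Med12l (-0.68) and Lhfp (-0.95). Kcnh7, a voltage-gated potassium channel, was the steepest of the other 3 at -2.23 ± 0.54, and Capg, an actin-capping protein, and Unc13d, a factor of vesicle release, had estimates of -0.99 and -1.17.

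The next question was how far the D6 response was still visible. The D6 and D8 comparisons share no library, and 4.14% of genes were called at D6 in either direction. They do share the spread of the fit to all 18 libraries, so they are not fully independent. Of the 449 genes called higher at D6 (3.02% of those tested), 293 had a D8 estimate above 0 and 143 below, with a median of 0.15 log2. Of all genes tested, 51% were above 0 and 48.8% below, with a median of 0.01. Of the 167 called lower at D6 (1.12%), 126 were below 0 and 41 above at D8, with a median of -0.22. In the pair 14 minus 13 the 2 medians were 0.03 and -0.05. In the pair 18 minus 17 they were 0.23 and -0.47. The D6 direction was thus seen as a small shift that was larger in 18 minus 17, as the box plot by pair shows. In the fit without library 18 the medians were 0.0016 and -0.052. That fit called its D6 genes anew, so its gene sets may differ from the 449 and 167. Both GLI1 OE libraries lay above both controls for 133 of the 449 (29.6%, against 17% of all genes). They lay below both for 64 of the 167 (38.3%, against 15.2%).

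**Figure D2:**
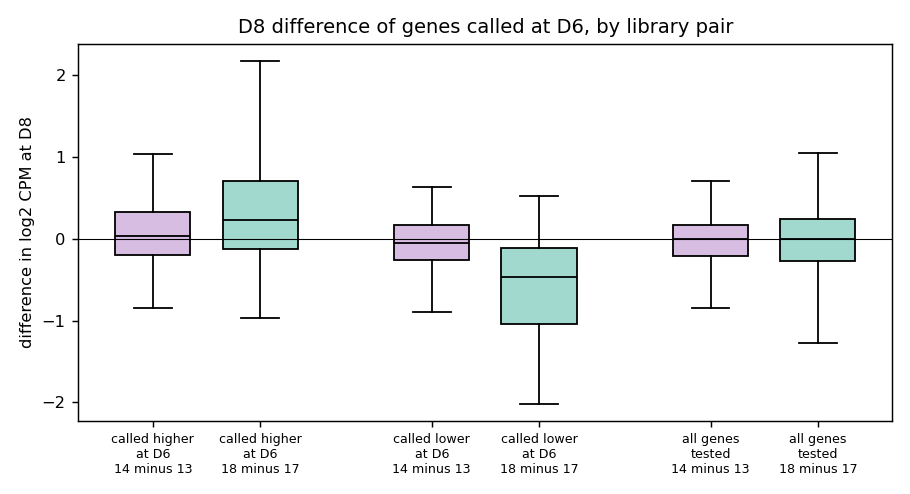
Difference in log2 CPM at D8 between GLI1 OE and control within each pair of adjacent library numbers, for genes called higher at D6 (449), called lower at D6 (167) and all genes tested (14892); boxes run from the 25th to the 75th percentile with the median as a line, whiskers from the 5th to the 95th percentile. The medians are 0.03 and 0.23 for genes called higher at D6, and -0.05 and -0.47 for genes called lower, in pairs 14 minus 13 and 18 minus 17.

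Testing the difference between the days itself, edgeR called 94 genes (0.631%), 10 with a higher effect at D8 than at D6 (0.0672%) and 84 with a lower one (0.564%). Of the 449 genes called higher at D6, 84 were called for a difference between the days in either direction, a count in which the D6 libraries enter both selections. Among named genes, the D8 effect was lower than the D6 effect for Gli1 and Ngfr, and higher for Tgfb2, Cdh6, Tsc22d1 and Tbx2. Tbx2, a T-box repressor of the chamber muscle programme, had 199 and 106 CPM in GLI1 OE, against 73.8 and 63.5 CPM in controls. Its D8 estimate was 1.15 ± 0.50, after a called decrease at D6 with a log2 fold change of -3.62, and the difference between the days was 4.77 (edgeR interaction adjusted p = 0.00584). The D12 estimate was 1.68 (edgeR adjusted p = 0.618), which did not pass.

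**Figure D3:**
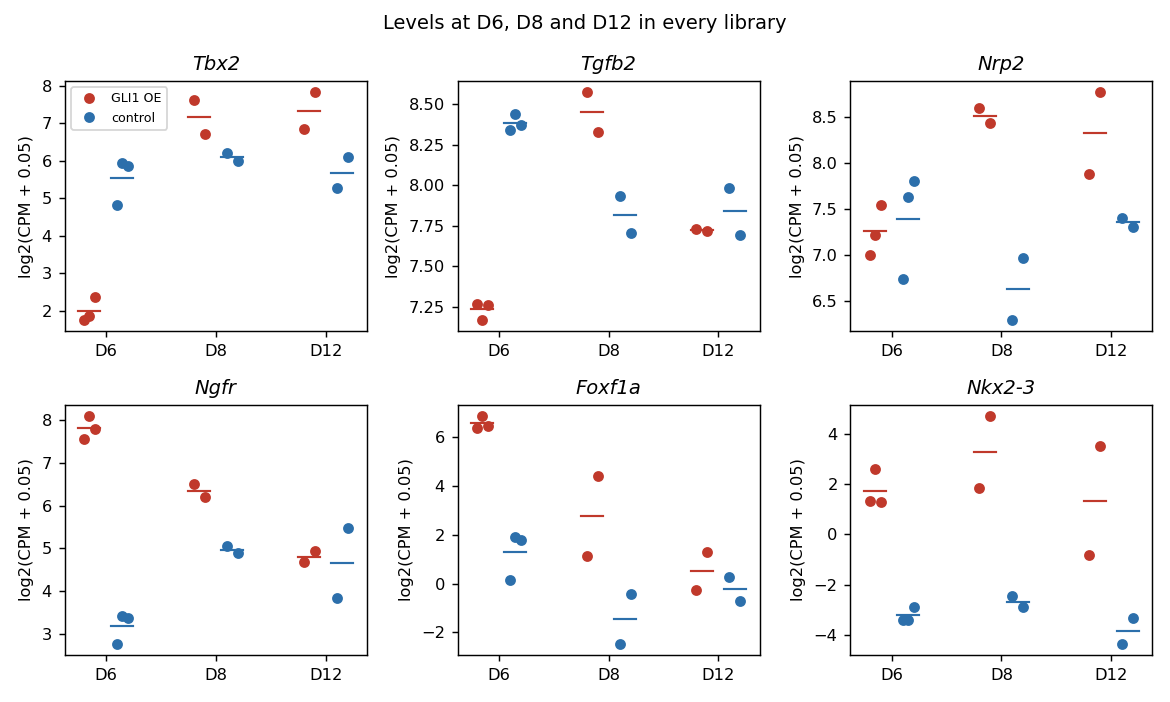
Levels, as log2(CPM + 0.05), of 6 genes in every library at D6, D8 and D12, with GLI1 OE in red left of control in blue and lines at the mean of each group. Tbx2 and Tgfb2 lie below controls at D6 and above them at D8 (199 and 106 against 73.8 and 63.5 CPM for Tbx2). Nrp2 has a mean of 155 against 176 CPM at D6, 365 against 102 CPM at D8 and 335 against 164 CPM at D12. Ngfr, Foxf1a and Nkx2-3 lie above controls at both D6 and D8.

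The genes described next come from the 8 that were called higher at D6 and had the largest D8 estimate in the same direction and separate D8 groups. Nkx2-3, a homeobox gene of gut and spleen mesenchyme, had 3.56 and 25.8 CPM in GLI1 OE, against 0.133 and 0.0872 CPM in controls. Both GLI1 OE libraries were far above both controls, although library 18 was much higher than library 14. The log2 fold change was 6.99 ± 1.46, against 5.78 at D6 (edgeR adjusted p = 0.0166 at D6), with pair differences of 4.03 and 7.19 (DESeq2 adjusted p = 0.00116; range over the alternatives up to 0.996). Foxf2, a forkhead factor of Hedgehog-responsive mesenchyme, had 0.509 and 20.1 CPM in GLI1 OE, against 0.0442 and 0.0872 CPM in controls. Its 454 counts in GLI1 OE and 3 in controls gave a ratio of 158 after scaling to depth, with an exact 95% interval of 53.7 to 769 that covers counting error only.

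Foxf1, the close relative of Foxf2 that stands in the counts as Foxf1a, had 2.13 and 21.1 CPM in GLI1 OE, against 0.133 and 0.697 CPM in controls. Its estimate of 4.79 ± 1.29 compares with 5.13 at D6. Foxa2, a forkhead factor of endoderm and floor plate, had 0.231 and 9.26 CPM in GLI1 OE, against 0.0885 and 0.0872 CPM in controls. Gpr20, an orphan receptor, had 1.06 and 19.1 CPM in GLI1 OE, against 0.796 and 0.392 CPM in controls. In each of these, library 14 lay above the controls but close to them for Foxa2 and Gpr20, and library 18 carried most of the counts. Without library 18 the estimates were 4.95 for Nkx2-3, 2.85 for Foxf2, 2.34 for Foxf1a, 1.34 for Foxa2 and 0.84 for Gpr20. Few counts were seen for Apba2, with 23 in GLI1 OE and 1 in controls, and for Cdhr5, with 3 and 0.

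The promoter of Nkx2-3 is shown because it was the gene of smallest DESeq2 adjusted p among those that were higher. GLI proteins bind the motif GACCACCCA. The sequence is RefSeq's for GRCm38.p6, 250 bases before and 50 after the gene start, on the + strand at chr19:43612075-43612374, with the core CCACCCA, here read on the opposite strand as TGGGTGG, in capitals:
Nkx2-3: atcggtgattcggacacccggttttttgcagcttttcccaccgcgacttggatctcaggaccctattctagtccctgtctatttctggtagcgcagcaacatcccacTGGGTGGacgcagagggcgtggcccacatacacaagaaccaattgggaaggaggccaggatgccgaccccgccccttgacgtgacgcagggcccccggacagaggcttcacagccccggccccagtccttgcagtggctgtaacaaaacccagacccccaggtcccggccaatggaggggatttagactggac
The match starts at -143 from the gene start. On either strand the full motif was in 0.253% of 32851 such promoters and the core, which the full motif contains, in 9.3%. Of these 8 genes, 5 had a promoter in the table, 0 of them with the full motif and 1, Nkx2-3, with the core. Among the 12 higher and the 12 lower genes, 8 each had one, with 0 full motifs and with the core in 0 and 1 (Capg). A match is a description of the letters, not a site of binding.

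Genes called lower at D6 with separate D8 groups included 2 of cardiac muscle. Irx4, a ventricular homeobox factor, had 8.42 and 0.545 CPM in GLI1 OE, against 18.7 and 13.6 CPM in controls. Kcnj5, a potassium channel subunit of atrial and nodal muscle, had 66.4 and 5.45 CPM in GLI1 OE, against 116 and 82.9 CPM in controls. Both GLI1 OE libraries were below both controls, and library 18 was the lowest by far. Their D8 estimates of -1.84 ± 0.98 and -1.47 ± 0.87 follow -5.20 and -3.10 at D6. Neither passed at D8 (edgeR adjusted p = 0.852 and 0.861). Over the 11 alternatives the D8 estimates ran from -4.89 to -0.93 for Irx4 and from -4.21 to -0.58 for Kcnj5. Gad2, a glutamate decarboxylase, had 1.06 and 1.23 CPM in GLI1 OE, against 3.19 and 3.23 CPM in controls. Cyp17a1, a steroid hydroxylase, had 3 counts in GLI1 OE and 25 in controls, a ratio of 0.125 (95% interval 0.0242 to 0.411).

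Of the Hedgehog target genes, 20 of 21 were tested, and 16 had a D8 estimate above 0 and 4 below, with a median of 0.72. Both GLI1 OE libraries lay above both controls in 6 (30%, against 17% of all genes) and below both in 2 (10%, against 15.2%). The median was 0.05 in the pair 14 minus 13 and 0.93 in 18 minus 17, and -0.04 in the fit without library 18. DESeq2 called 2, Foxf2 and Foxa2, both higher (0.168% of all genes were called higher). The feedback receptor Ptch1 had 39.7 and 105 CPM in GLI1 OE, against 33.4 and 29.6 CPM in controls. The feedback inhibitor Hhip, which binds the ligands, had 0.787 and 7.72 CPM in GLI1 OE, against 2.26 and 2 CPM in controls. For Ptch1 the groups separated with library 14 near the controls, and for Hhip the 2 GLI1 OE libraries lay on opposite sides of them. Foxd1, a forkhead factor of stromal progenitors, had 0.0925 and 19.1 CPM in GLI1 OE, against 0.0885 and 0.479 CPM in controls, so its estimate of 5.05 ± 1.64 came from library 18 alone.

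The 2 targets below both controls were Ccnd1 and Mycn. Ccnd1, cyclin D1, had 117 and 146 CPM in GLI1 OE, against 168 and 216 CPM in controls. Mycn, the N-MYC gene, had 36.3 and 49.6 CPM in GLI1 OE, against 50.7 and 67.7 CPM in controls. Both were lower in both pairs, with estimates of -0.55 and -0.46. The 15 tested pathway components had 10 estimates above 0 and 5 below, with a median of 0.10. Smo had 120 and 169 CPM in GLI1 OE, against 113 and 137 CPM in controls, and Gli3, the main repressor of the pathway, 88.2 and 102 CPM against 94.1 and 91.3 CPM. The groups overlapped for both. Gpr161, a receptor that restrains the pathway, and Scube2, which helps release the ligands, separated the groups in opposite directions (0.60 ± 0.27 and -2.05 ± 0.91).

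Of 19 second heart field genes, 14 had an estimate above 0 and 5 below, with a median of 0.62 (0.20 in 14 minus 13 and 0.78 in 18 minus 17, and 0.26 without library 18). The groups were separate in 6 higher genes (31.6%, against 17% of all genes) and 2 lower (10.5%, against 15.2%). Wnt2b, a WNT ligand and the member DESeq2 called, had 5.32 and 5.5 CPM in GLI1 OE, against 1.11 and 1.13 CPM in controls. Fgf8, the growth factor of the early second heart field, had 6.66 and 1.77 CPM in GLI1 OE, against 0.885 and 0.174 CPM in controls. Both GLI1 OE libraries lay above both controls for each. The Wnt2b estimate was 2.27 and stayed between 2.24 and 2.28 over the 11 alternatives, whereas that of Fgf8, with 20 and 4 counts in controls, was 2.98 and ran from 1.72, without library 14, to 4.55, without control 13. The edgeR adjusted p at D8 was 0.489 for Wnt2b and 0.632 for Fgf8 (DESeq2 adjusted p = 0.00775 and 0.0669). Neither gene had been called at D6, where their estimates were -0.22 and -1.19. Tbx1, a T-box factor of that field, had 0.37 and 5.9 CPM in GLI1 OE, against 0.531 and 0.131 CPM in controls, and so rested on library 18.

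The sarcomere list was lower by estimate in 28 of 29 tested genes, with a median of -0.50, yet the 2 pairs differed. In 18 minus 17 all 29 were below 0 with a median of -2.21, whereas in 14 minus 13 it was 17 below and 12 above, with a median of -0.12. Of all genes tested, 50.2% were above 0 and 49.4% below in 18 minus 17, and 49.3% above and 50% below in 14 minus 13. The groups were separate, and lower, in 3 genes (10.3%, against 15.2% of all genes). Tnni3, the adult cardiac troponin I, had 64 and 8.67 CPM in GLI1 OE, against 156 and 77.3 CPM in controls. Myom2, an M-band protein, had 1.62 and 1.18 CPM in GLI1 OE, against 6.19 and 5.93 CPM in controls. Myoz2, a Z-disc protein, had 0.648 and 0.0908 CPM in GLI1 OE, against 1.99 and 2.22 CPM in controls.

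The abundant sarcomere genes overlapped between groups. Myh6, the atrial myosin heavy chain, had 3218 and 205 CPM in GLI1 OE, against 3957 and 1678 CPM in controls. Tnnt2, cardiac troponin T, had 1336 and 186.2 CPM in GLI1 OE, against 1171 and 870.1 CPM in controls. In both genes library 14 resembled control 13 while library 18 was the lowest of the 4. Without library 18 the median of the list was 0.19 and without library 14 it was -2.86. Without control 13 it was 0.03. In bulk RNA, fewer muscle cells and less of these transcripts per cell cannot be told apart.

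**Figure D4:**
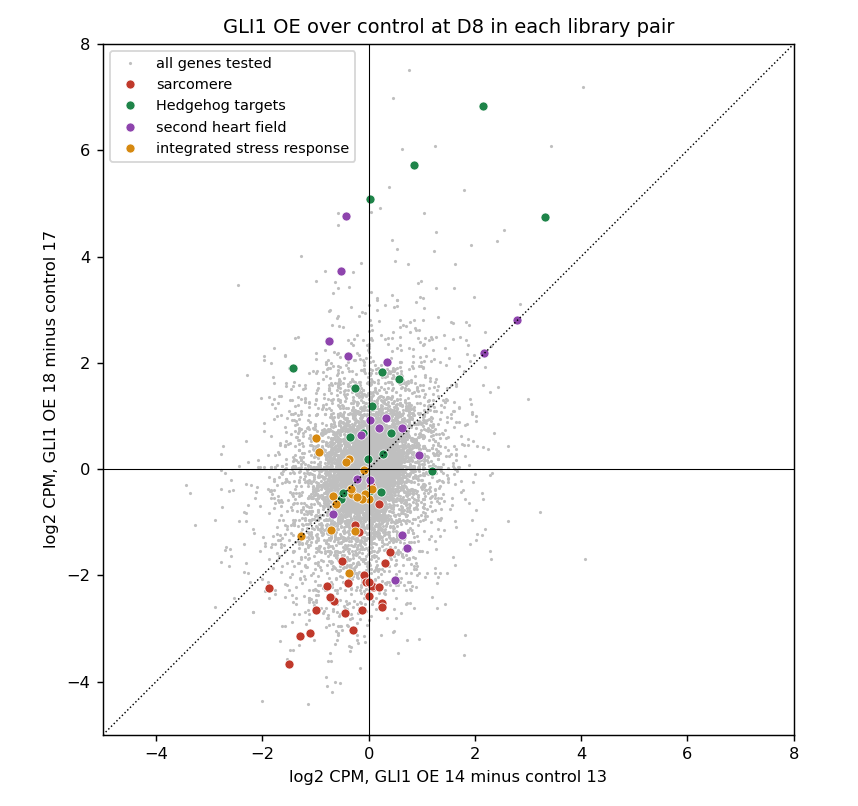
Difference in log2 CPM between GLI1 OE and control at D8 in pair 18 minus 17 (vertical) against pair 14 minus 13 (horizontal), 1 point per gene tested (14892, grey), with sarcomere (red), Hedgehog target (green), second heart field (purple) and integrated stress response (orange) genes marked; the dotted line is equality. The 29 red points all lie below 0 on the vertical axis, with medians of -0.12 and -2.21 in the 2 pairs, and the highest green points lie far above the line.

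Other cardiac lists showed the same split by pair. Calcium handling and conduction genes had 18 of 26 estimates below 0, with a median of -0.54 (-0.21 in 14 minus 13 and -1.09 in 18 minus 17). Energy metabolism genes had 21 of 23 below 0, with a median of -0.43 (-0.16 and -0.96 in the same pairs). Core cardiac transcription factors had 12 of 20 below 0, but their pair medians had opposite signs, 0.49 and -1.06. Without library 18 the 3 medians were -0.08, 0.03 and 0.40, and without library 14 they were -1.78, -1.37 and -0.89. Without control 13 they were 0.18, -0.12 and -0.14. Tbx20, a cardiac T-box factor, had 730 and 85.1 CPM in GLI1 OE, against 427 and 488 CPM in controls. Gata5, a cardiac GATA factor, had 177 and 33 CPM in GLI1 OE, against 94.8 and 117 CPM in controls. In both, library 14 was the highest of the 4 and library 18 the lowest.

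Some genes of these lists separated the groups in both pairs. Gjc1, the gap junction protein connexin 45, had 136 and 106 CPM in GLI1 OE, against 86.5 and 83.7 CPM in controls. Nr2f1, an atrial nuclear receptor, had 12.7 and 23.4 CPM in GLI1 OE, against 5.09 and 3.14 CPM in controls. Estimates were 0.50 ± 0.16 and 2.13 ± 0.75. Tbx5, the atrial and limb T-box factor, had 23.2 and 5 CPM in GLI1 OE, against 35.5 and 41.8 CPM in controls.

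Genes of the integrated stress response, which the factor ATF4 drives when amino acids are short, were lower by estimate in 18 of 18 cases. The median was -0.38, with similar medians in the 2 pairs (-0.34 and -0.50). Both pairs were below 0 in 12 of the 18 (66.7%, against 28.9% of all genes). In 14 minus 13, 2 were above 0, and in 18 minus 17, 4 were. The groups were separate, and lower, in 9 of the 18 (50%, against 15.2% of all genes). Slc7a5, the large neutral amino acid transporter, had 22.9 and 33.4 CPM in GLI1 OE, against 37.5 and 74 CPM in controls. Asns, asparagine synthetase, had 40.1 and 40.8 CPM in GLI1 OE, against 48 and 92 CPM in controls. Slc3a2, the partner chain of Slc7a5, had 67.6 and 76.5 CPM in GLI1 OE, against 78.3 and 111 CPM in controls. For these 3, control 17 was the highest library, and control 13 lay nearer to the GLI1 OE libraries. Atf4 itself differed little, at 95.8 and 111 CPM in GLI1 OE and 102 and 112 CPM in controls. Summed levels of the list were 665 and 785 CPM in GLI1 OE, against 770 and 1043 CPM in controls, and overlapped.

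Cell cycle genes had a median of -0.01, with 9 of 21 estimates above 0, but again the pairs pointed apart: 19 of 21 were below 0 in 14 minus 13 (median -0.23) and 19 of 21 above 0 in 18 minus 17 (median 0.24). The replication licensing gene Mcm4 had 174.3 and 231.9 CPM in GLI1 OE, against 176.1 and 185.5 CPM in controls (pair differences -0.01 and 0.32). A minority went the same way in both pairs. Mcm6, also of replication licensing, was higher in both (0.06 and 0.34), with 155 and 238 CPM in GLI1 OE, against 149 and 188 CPM in controls. E2f1 was lower in both (-0.40 and -0.13). Genes of developmental timing had a median of 0.11, and Lin28b, an inhibitor of let-7 microRNAs, had 47.8 and 93.3 CPM in GLI1 OE, against 57.6 and 61.4 CPM in controls. The groups overlapped for Mcm4, Mcm6 and Lin28b.

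**Figure D5:**
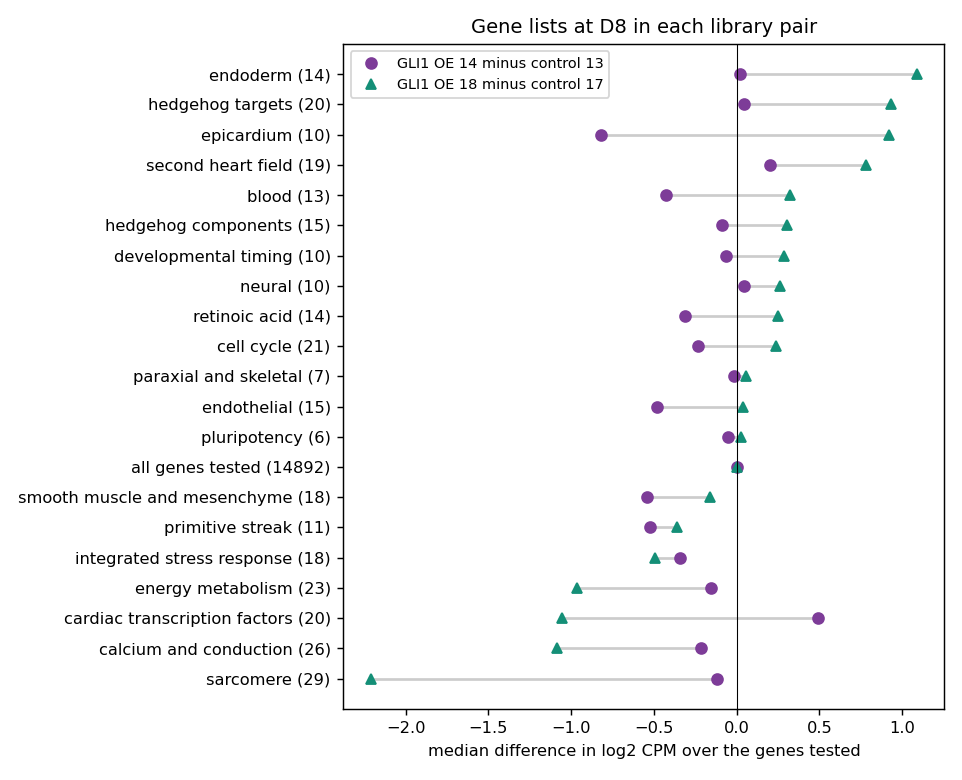
Median difference in log2 CPM between GLI1 OE and control at D8 over the tested genes of 20 lists (number of genes in brackets) and all genes tested, for pair 14 minus 13 (purple circles) and pair 18 minus 17 (green triangles). Sarcomere genes are lowest in 18 minus 17 (-2.21) and near 0 in 14 minus 13 (-0.12), while the integrated stress response is similar in both (-0.34 and -0.50).

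Markers of other cell types are given as measured levels, and their part in the results above was not tested. Smooth muscle and mesenchyme markers summed to 7133 and 13100 CPM in GLI1 OE, against 7464 and 12020 CPM in controls, so library 18 and control 17 were both high. Epicardium markers summed to 46.5 and 206 CPM in GLI1 OE, against 46.4 and 106 CPM in controls. Neural markers summed to 671 and 1213 CPM in GLI1 OE, against 602 and 619 CPM in controls. Most of the last came from Sox11, a SOX factor of many progenitors (444 and 814 CPM in GLI1 OE, against 394 and 384 CPM in controls), and the neuronal factors Neurog1 and Neurog2 were at 0 in all 4 libraries. Endoderm markers summed to 155 and 295 CPM in GLI1 OE, against 120 and 142 CPM in controls, mostly keratins: Krt8 had 67.9 and 126 CPM in GLI1 OE, against 46.3 and 69 CPM in controls. Alb, the albumin gene, had a count in library 14 alone. Endothelial markers summed to 606 and 891 CPM in GLI1 OE, against 683 and 895 CPM in controls. Blood markers summed to 109 and 74.6 CPM in GLI1 OE, against 71.8 and 55.6 CPM in controls, but their members did not share that direction. Of the 13 tested, 9 were below 0 in 14 minus 13 and 5 in 18 minus 17. The groups were separate in 4 lower genes (30.8%, against 15.2% of all genes) and 2 higher (15.4%, against 17%).

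Among genes with a mean log2 CPM of at least 1, the 6 in each direction with the largest difference between the pairs were also singled out, with no test, and some of these are given. Slc9a7, a proton exchanger of the Golgi, had 7.03 and 0.318 CPM in GLI1 OE, against 4.78 and 4.4 CPM in controls. Panx2, a pannexin channel, had 25 and 1.41 CPM in GLI1 OE, against 10.1 and 9.11 CPM in controls. Ptgs2, the inducible cyclooxygenase, had 0.463 and 8.95 CPM in GLI1 OE, against 2.61 and 2.57 CPM in controls. In Slc9a7, Panx2 and Ptgs2 the controls were alike and the GLI1 OE libraries lay on either side of them. Mstn, the muscle growth inhibitor myostatin, had 5.28 and 0.818 CPM in GLI1 OE, against 1.46 and 10.1 CPM in controls, so that its controls parted as well. Other genes singled out also had controls that parted. Slc16a12 had 3.89 and 3.86 CPM in GLI1 OE, against 6.24 and 0.305 CPM in controls. Phlda2 had 8.19 and 3.86 CPM in GLI1 OE, against 1.59 and 12.7 CPM in controls. For Spon2 and Fam129a the controls were alike. Nkx2-1, a homeobox factor of lung and thyroid, was named from the endoderm list and not as one of these genes. It had 9.67 and 0.182 CPM in GLI1 OE, against 0.487 and 0.784 CPM in controls, and was high in library 14 alone.

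Last, the D8 comparison was set against the course of differentiation, taken from controls at D5 and D12. These share no library with it, only the spread of the fit. Of 3054 genes that rose at least 1 log2 between those days (20.5%), 1947 were below 0 at D8 in GLI1 OE over control and 1107 above, with a median of -0.13. Of 3055 that fell (20.5%), 1943 were above 0 and 1105 below, with a median of 0.08. The medians were -0.09 and 0.01 in the pair 14 minus 13, and -0.20 and 0.15 in 18 minus 17. Genes that rise with time were thus somewhat lower by estimate in GLI1 OE, and more so in library 18. In the fit without library 18, where the falling genes were called anew, their median was -0.03.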

How the data were processed

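The authors deposited raw whole-number counts per gene symbol, which the tests used unchanged. What aligned and counted the reads, whether strand was used and on which build is not given in the sources used, so near-identical, overlapping and antisense genes are uncertain. The authors' deposited D8 tables give log2 fold changes, p-values and adjusted p-values, printed only where named. Their D8 table holds 15138 genes, and 13116 matched a tested gene. The authors also deposited TPM values for D5 controls, which were not used. Of 23337 genes, 14892 passed edgeR's filter (minimum count 10).

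In R 4.3.3, edgeR 4.0.16 fitted a robust quasi-likelihood model to all 18 libraries with 1 coefficient for each of 7 groups (TMM scaling), so the spread is shared between groups. P-values were adjusted by Benjamini-Hochberg and called under 0.05. The SE is the log2 fold change over the square root of F. Pair differences are log2 CPM with a prior count of 2. Summed levels of lists are CPM of total counts. The model was also run on counts simulated from its own fitted spread, which does not check that spread against these libraries. DESeq2 1.42.0, limma 3.58.1 (voom), other scaling, no filter, D8 libraries alone, a block of adjacent numbers at D8 only and leaving out each D8 library were alternatives. Promoters and figures used Python 3.11.15, pandas 2.3.3 and matplotlib 3.10.9.

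The comparison, the 20 gene lists and the naming rule were chosen with earlier results of these data known. The rule took Gli1; the authors' 11 genes; the 12 higher and 12 lower genes of smallest p with mean log2 CPM of at least 1, separate groups and at least 0.5 log2 in both pairs; up to 3 genes a list; 6 genes a direction that differ most between pairs at that mean level; and up to 8 genes a direction called at D6. Predicted names were left out, and results for some genes chosen by the rule are not reported here. Further list members (Ptch1, Hhip, Foxd1, Ccnd1, Mycn, Gli3, Myh6, Tnnt2, Tbx20, Gata5, Tbx5, Atf4 and Alb) were named after their values were seen. Where a group held 1 to 3 counts the ratio has an exact 95% interval. Foxf1, Map2 and Spi1 were found under older names through the RefSeq gene table of GRCm38.p6.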

Additional observations from a re-analysis of the deposited data

Results flagged for a closer look

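The GLI1 OE effects at D6 and D8 differed in edgeR's test of the difference itself for 94 genes, 10 with a higher effect at D8 and 84 with a lower one. Among named genes the D8 effect minus the D6 effect was -5.72 log2 for Gli1, -3.24 for Ngfr, 1.78 for Tgfb2, 2.81 for Cdh6, 1.05 for Tsc22d1 and 4.77 for Tbx2. Under 9 alternatives, Ngfr, Tgfb2 and Tbx2 were called in 9, Cdh6 in 6, and Gli1 and Tsc22d1 in 5. Gli1 and Tsc22d1 lost the call when any of the 4 D8 libraries was left out, with adjusted p up to 0.296 and 0.165. Cdh6 lost it without GLI1 OE library 18, without control library 17 and in the fit to D6 and D8 libraries alone, with adjusted p up to 0.0938.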

How the results depend on the processing

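For D8, edgeR called 0 genes under other scaling, no filter, a spread that is not robust and D8 libraries alone, as did limma-voom, while DESeq2 called 40. Leaving out 1 library gave 0 to 49 calls: 49 without GLI1 OE library 14, 1 without control library 13 and 0 without either of the other two. A library left alone in its group was assumed to vary like the other groups. The adjacent numbers are a number only, since nothing says that they mark a shared culture. Deviations of same-numbered libraries correlated at 0.49 over 14892 genes in 2 pairs. The fit with the replicate block of adjacent numbers gave 0 calls. That block paired the D8 libraries only, so it does not show what pairing at every day would give. For the difference between D8 and D6 (94 genes), DESeq2 called 233 (54 higher, 179 lower), leaving out 1 library gave 48 to 91, with 48 without control library 13 and 51 without control library 17, the block gave 109, and the D6 and D8 libraries alone, chosen after seeing the data, gave 96. A version from separate fits to each day was not run.

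Medians at D8 without 1 library ran from 0.0016 to 0.22 for genes called higher at D6, -0.69 to -0.052 for genes called lower, -0.24 to -0.066 for genes rising with time and -0.030 to 0.17 for genes falling with time. Each of these fits called its own D6 and time genes, so the sets may differ from those of the main fit. The Hedgehog target median, 0.72, was -0.04 without library 18 and 0.87 without library 14. Endoderm, at 1.54 over all 4 libraries (13 of 14 above 0), was 0.11 without library 18, and epicardium, at 0.75, was -1.67. The stress response stayed between -0.48 and -0.26 in these 4 fits. Over the same fits the estimates below turned sign, or for Pou5f1 came to 0, and the cause was not tested. Low values came without library 18 and ran from -0.059 to 0.65 for Gli1, -0.051 to 0.34 for Mcm4, -0.12 to 0.48 for Mcm6, -0.31 to 0.63 for Lin28b, -0.098 to 0.40 for Ezh2, -0.74 to 1.99 for Emcn, -0.28 to 2.94 for Sema3d, -1.32 to 1.65 for Wt1, -0.052 to 0.42 for Smo, -0.16 to 1.42 for Meox1 and -2.29 to 7.52 for Cyp26c1. Pou5f1, with 0 counts in every D8 library but 18, was fitted at 0 to 6.91. Nkx2-1 ran from -1.79, without library 14, to 3.92. Without control 13, Mb reached 0.16 and Esrrb 0.45, after lows of -5.15 and -2.82, and without control 17 Tubb3 reached 0.085, after -2.57.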
